A study of Mus musculus with 15 samples.

Results

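The homeobox genes Msx1, Msx2, Alx1, Alx4 and Barx1 of the facial mesenchyme were followed in the epithelium and the mesenchyme of embryonic mouse salivary glands. The genes were chosen by name, with earlier results of these data known. Each was found in the count table under the Ensembl identifier of its symbol, 5 genes of 48709. All 5 passed the filter on low counts, which left 18940 genes. Embryos were of the outbred mouse strain ICR, with no treatment or altered gene named. The submandibular gland (SMG) came from embryonic day 11.5, while day 12 was used for the parotid gland (PG). There were 4 libraries of SMG epithelium, 4 of SMG mesenchyme, 3 of PG epithelium and 4 of PG mesenchyme, made from bulk RNA with a full-length cDNA kit. Gland and embryonic day change together and cannot be told apart, so that a difference between glands is also a difference between stages.

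MSX, ALX and BARX proteins are transcription factors that bind DNA through a homeodomain. In the embryonic face Msx1 and Msx2 are known as targets of BMP signalling in neural crest mesenchyme and in the ectoderm next to it, and Msx1 is needed for palate and tooth formation. Alx1 and Alx4 are related to the paired genes and are known for roles in the mesenchyme of the upper face and, for Alx4, of limb and hair follicle. Barx1 marks mesenchyme of the proximal jaws and molar region, where FGF signals from the oral ectoderm favour it and BMP signals restrain it, and it is also known from stomach mesenchyme.

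Promoter sequences of 3 of the 5 genes, Msx1, Msx2 and Barx1, were found in a RefSeq table of build GRCm38.p6. No entry was found there for Alx1 or Alx4, and all 3 sequences found are shown. Each runs 5′ to 3′ on the gene's own strand, from 250 bases before to 50 bases after the RefSeq start site. Msx1 is at chr5:37824536-37824835 (minus strand), Msx2 at chr13:53472731-53473030 (minus strand) and Barx1 at chr13:48662786-48663085 (plus strand). Capitals mark matches on either strand, which may overlap, to TAATT (the core bound by many homeodomains), to CCAAT (a general promoter element), to GGGCGG (the GC box) and to TATAA (the core of the TATA box).
Msx1: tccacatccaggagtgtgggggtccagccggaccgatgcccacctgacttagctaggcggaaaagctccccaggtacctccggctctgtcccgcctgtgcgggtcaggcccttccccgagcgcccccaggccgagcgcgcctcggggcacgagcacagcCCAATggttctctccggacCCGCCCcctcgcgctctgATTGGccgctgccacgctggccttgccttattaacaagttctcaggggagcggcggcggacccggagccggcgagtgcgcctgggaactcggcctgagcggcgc
Msx2: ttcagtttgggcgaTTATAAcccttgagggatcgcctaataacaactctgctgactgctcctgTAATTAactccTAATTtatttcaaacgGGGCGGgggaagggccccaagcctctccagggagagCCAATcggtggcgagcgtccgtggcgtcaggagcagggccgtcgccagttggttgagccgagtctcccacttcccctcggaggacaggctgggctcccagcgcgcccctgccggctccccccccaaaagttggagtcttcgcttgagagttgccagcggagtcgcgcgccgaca
Barx1: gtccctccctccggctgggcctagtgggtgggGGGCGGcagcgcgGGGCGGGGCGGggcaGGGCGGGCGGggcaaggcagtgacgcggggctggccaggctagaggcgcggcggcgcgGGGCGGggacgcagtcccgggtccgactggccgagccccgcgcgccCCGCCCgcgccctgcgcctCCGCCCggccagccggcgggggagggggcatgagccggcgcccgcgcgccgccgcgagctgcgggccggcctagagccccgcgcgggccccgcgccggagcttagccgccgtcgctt
The Msx2 window held 3 matches to TAATT, at positions -187, -186 and -176 from the start site, and the Msx1 and Barx1 windows held 0. Of 32851 RefSeq promoters of the same length, 27.0% held TAATT. The GC box matched 8 times in the Barx1 window, 1 time in that of Msx1 and 1 time in that of Msx2, and 35.7% of all promoters held it. CCAAT matched 2 times in Msx1 and 1 time in Msx2 (37.4% of promoters), and TATAA 2 times in Msx2 (24.9%). The share of G and C was 84.7% in the Barx1 window, 70.0% in Msx1 and 61.0% in Msx2, against a median of 52.7% over all promoters. These matches are descriptions of letters, and no binding was measured.

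Total gene counts ran from 20561142 to 29552734 per library, so that 1 read was worth a median of 0.0389 CPM (the count scaled to the size of its library, with edgeR's TMM factors). The labelled layers were checked against 20 epithelial and 20 mesenchymal markers. Epithelial markers summed to 3512 to 5128 CPM in the epithelium libraries of both glands, 14.7 to 31.8 in SMG mesenchyme and 128 to 741 in PG mesenchyme. Mesenchymal markers summed to 10487 to 16953 CPM in mesenchyme and 987 to 1575 in epithelium. As a median over markers, the epithelial ones in PG mesenchyme replicate 1 stood at 17.3% of their level in PG epithelium, against 2.92 to 3.57% in replicates 2 to 4 and at most 0.449% in SMG mesenchyme. The mesenchymal ones in PG epithelium replicate 2 stood at 6.06% of their PG mesenchyme level, against 1.54 and 1.48% in replicates 1 and 3. In SMG epithelium they stood at 0.822, 1.41, 4.86 and 0.721% in replicates 1 to 4. PG epithelium replicate 2 and PG mesenchyme replicate 1 were left out, alone and together, as alternatives.

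Msx1 was the gene with the widest gap between the mesenchymes of the glands. Msx1 (ENSMUSG00000048450, GRCm38 chromosome 5, 37820485 to 37824583, minus strand) stood at 102, 143, 182 and 357 CPM in the 4 libraries of PG mesenchyme. In SMG mesenchyme it stood at 1.93, 2.11, 2.85 and 2.02 CPM. The lowest PG library was thus far above the highest SMG library, and the groups did not overlap, as was the case for 26.2% of all genes tested between the mesenchymes. The means were 196 ± 112 (SD, n = 4) and 2.23 ± 0.420 CPM (n = 4), a log2 difference of 6.46 ± 0.88 (standard error), adjusted p = 1.83e-04. With 1 library left out at a time the difference was 6.0 to 6.68 and stayed past the threshold. In bulk RNA a smaller number of cells with a transcript and less of it per cell cannot be told apart.

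Skeletal muscle markers also differed in level between the mesenchymes. All 9 were detected in every PG mesenchyme library, and at least 8 in every SMG mesenchyme library. Their sum was 783 to 1533 CPM in PG mesenchyme and 48.5 to 221 in SMG mesenchyme. Within PG mesenchyme the order ran the other way from Msx1, with muscle sums of 1533, 1325, 1009 and 783 CPM in replicates 1 to 4, where Msx1 was 102, 143, 182 and 357. Replicate 1 was also the library with the most epithelial marker RNA in PG mesenchyme. The part of the muscle cells in the Msx1 difference was not tested.

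In the epithelium Msx1 was low apart from 1 library. PG epithelium held 0.583, 18.1 and 1.60 CPM in replicates 1 to 3, and SMG epithelium 0.25, 0.0695, 0.330 and 0.333. The second PG library was the one with the most mesenchymal marker RNA, and its Msx1 stood at 9.24% of the PG mesenchyme mean beside the marker share of 6.06%. All 3 PG libraries lay above all 4 SMG libraries. The epithelia did not overlap for 23.1% of all genes tested, in either direction. Msx1 was called higher in PG than in SMG epithelium (4.77 ± 1.11, adjusted p = 0.014), a call that was lost without PG epithelium replicate 2 (2.18, adjusted p = 0.104). Within the PG, Msx1 was lower in epithelium than in mesenchyme (-4.85 ± 0.90, adjusted p = 7.17e-04), and by -7.48 without that library. Within the SMG it was also lower in epithelium (-3.17 ± 1.18, adjusted p = 0.0392), on 27 reads in all of SMG epithelium and 217 in SMG mesenchyme. Leaving out any 1 of the 8 SMG libraries ended the latter call, with adjusted p = 0.0535 to 0.0834 and a log2 difference of -3.39 to -2.86. It was also lost with no filter on low counts (adjusted p = 0.0854) and with limma at a pseudocount of 2 (adjusted p = 0.158). The call was kept with only the SMG libraries in the fit (-3.17, adjusted p = 4.33e-05) and with DESeq2 (-3.21, adjusted p = 5.52e-04). The layer difference of Msx1 did not differ between the glands past the threshold (-1.69 ± 1.67, adjusted p = 0.581), but did without PG epithelium replicate 2 (-4.28, adjusted p = 0.014).

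**Figure D1:**
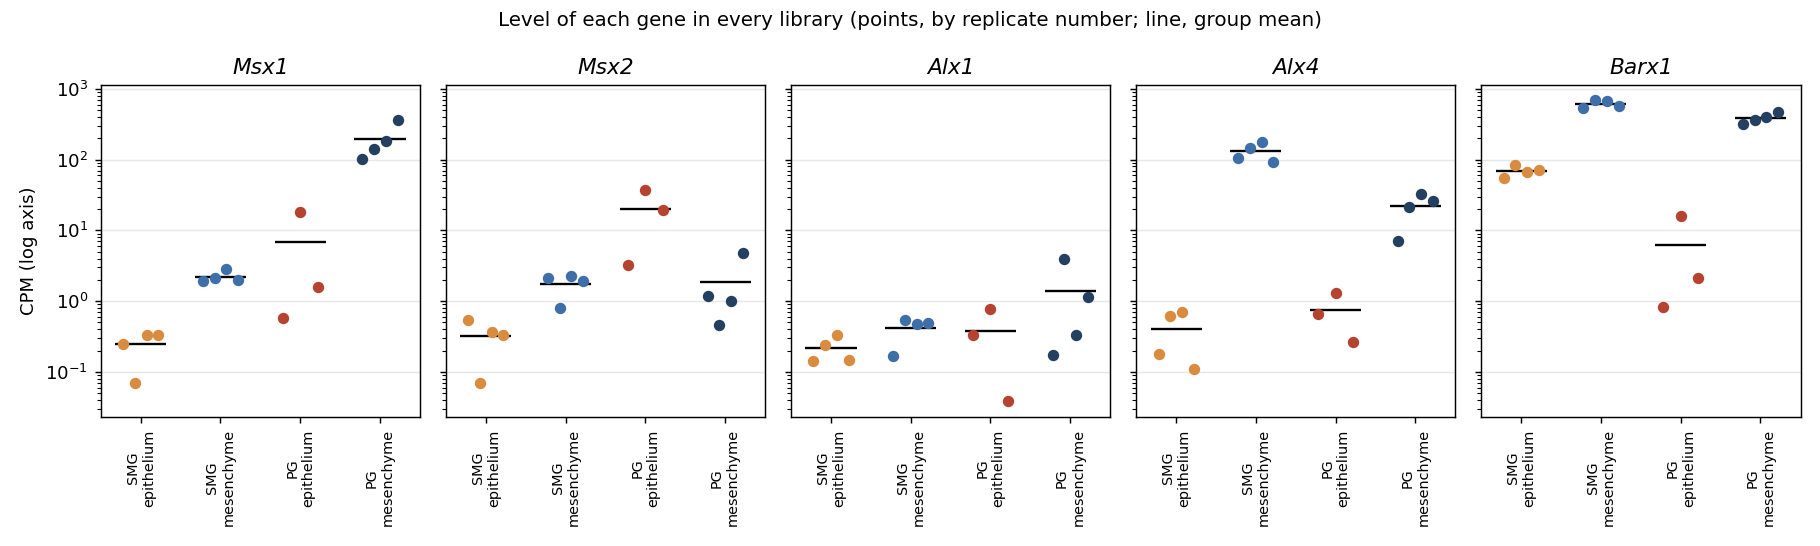
Level of each of the 5 genes in CPM (log axis) in every library of the 4 groups. Points are libraries in the order of their replicate numbers and lines are group means; Msx1 is highest in PG mesenchyme, Alx4 in both mesenchymes with SMG above PG, Barx1 in both mesenchymes and SMG epithelium, and Msx2 reaches its highest values in PG epithelium.

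Msx2, the paralog of Msx1, was highest in the other layer, the PG epithelium. Msx2 (ENSMUSG00000021469, chromosome 13, 53466884 to 53473074, minus strand) stood at 3.21, 36.6 and 19.5 CPM in PG epithelium and at 0.536, 0.0695, 0.366 and 0.333 in SMG epithelium. All PG epithelium libraries were above all SMG epithelium libraries, and 23.1% of all genes tested did not overlap there, in either direction. The 3 PG libraries varied widely among themselves. The means of 19.8 ± 16.7 (n = 3) and 0.326 ± 0.193 CPM (n = 4) differed by 5.91 ± 0.92 on the log2 scale, adjusted p = 7.59e-04, and by 5.13 without PG epithelium replicate 2 (adjusted p = 0.00202). The oral and dental epithelium markers, 9 genes that include Fgf8 and Sp6, summed to 428, 947 and 889 CPM in PG epithelium replicates 1 to 3 and to 344 to 417 CPM in SMG epithelium. The PG library with the lowest Msx2 thus had the lowest marker sum in PG epithelium. It also had the lowest sum of the 20 general epithelial markers, 3512 CPM against 5023 and 5128 in replicates 2 and 3. The sum does not show the direction of each marker. Fgf9, 1 of the 9, had a lower mean in PG than in SMG epithelium (62.6 ± 14.2 against 102 ± 8.4 CPM). Shh had 0 reads in PG epithelium replicate 1. The part of cells with these markers in the Msx2 values was not tested.

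In mesenchyme Msx2 was low in both glands. PG mesenchyme had 1.18, 0.466, 0.999 and 4.84 CPM, and SMG mesenchyme 2.14, 0.807, 2.24 and 1.90. The groups overlapped, and the difference of 0.07 ± 0.75 was not past the threshold (adjusted p = 0.965). It changed sign without PG mesenchyme replicate 4 (-1.0, adjusted p = 0.371). That library had 24.5% of the PG epithelium mean of Msx2 beside an epithelial marker share of 3.57%, while replicate 1, with the marker share of 17.3%, had 5.99%. Msx2 was thus higher in epithelium than in mesenchyme in the PG (3.42 ± 0.80, adjusted p = 0.00284), although the lowest epithelium library (3.21 CPM) lay under the highest mesenchyme library (4.84 CPM). Without PG epithelium replicate 2 the difference was 2.60 (adjusted p = 0.0158). In the SMG it was lower in epithelium (-2.42 ± 0.87, adjusted p = 0.0302), on 36 reads against 171. Leaving out SMG epithelium replicate 2, 3 or 4 or SMG mesenchyme replicate 1, 3 or 4 ended that call (adjusted p = 0.0547 to 0.0779), as did no filter (0.0851) and limma at pseudocounts of 0.5 and 2 (0.0643 and 0.252). The call was kept with only the SMG libraries in the fit (-2.43, adjusted p = 0.00168) and with DESeq2 (-2.47, adjusted p = 0.00693). The 2 layer differences of Msx2 differed by 5.84 ± 1.17 (interaction term, adjusted p = 0.00414), the largest interaction among the 5 genes. It was 5.06 without PG epithelium replicate 2 (adjusted p = 0.00886) and 4.89 with PG mesenchyme replicate 1 left out as well (adjusted p = 0.0143).

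Alx4 was a gene of the mesenchyme, with more in the SMG than in the PG. Alx4 (ENSMUSG00000040310, chromosome 2, 93642384 to 93681339, plus strand) stood at 105, 147, 179 and 93.6 CPM in SMG mesenchyme. In PG mesenchyme it stood at 7.15, 21.5, 32.9 and 26.2 CPM, lowest in replicate 1, the library with the most epithelial marker RNA. No PG library reached the SMG range, and 26.2% of all genes tested did not overlap between the mesenchymes, in either direction. The means were 131 ± 39.4 and 21.9 ± 10.9 CPM (n = 4 each), a log2 difference PG minus SMG of -2.58 ± 0.45, adjusted p = 9.04e-04. It was -2.29 without PG mesenchyme replicate 1 (adjusted p = 4.89e-04) and -2.84 to -2.29 over all libraries left out in turn.

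In epithelium Alx4 was close to absent, at 0.179, 0.625, 0.696 and 0.111 CPM in the SMG and 0.666, 1.32 and 0.267 CPM in the PG. These groups overlapped (0.89 ± 0.82, adjusted p = 0.569, and 0.20 without PG epithelium replicate 2). As a share of the SMG mesenchyme mean the SMG epithelium held 0.0845 to 0.530% of Alx4, below the median mesenchymal marker in each of the 4 libraries. In PG epithelium the shares of the PG mesenchyme mean were 3.04, 6.03 and 1.22% in replicates 1 to 3, beside marker medians of 1.54, 6.06 and 1.48%. Alx4 was lower in epithelium by 8.32 on the log2 scale in the SMG and by 4.86 in the PG (differences of -8.32 ± 0.64, adjusted p = 1.92e-07, and -4.86 ± 0.64, adjusted p = 4.13e-05). The PG value was -5.57 without PG epithelium replicate 2 and -5.86 with PG mesenchyme replicate 1 left out as well. The layer differences differed between the glands by 3.47 ± 0.94 (adjusted p = 0.0255). That call was lost without SMG epithelium replicate 1, PG epithelium replicate 1 or PG epithelium replicate 2, and the last of these gave 2.78 (adjusted p = 0.151). It was also lost with no filter (adjusted p = 0.0677).

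Alx1 was barely detected. Alx1 (ENSMUSG00000036602, chromosome 10, 102998707 to 103030215, minus strand) had 24 reads in all of SMG epithelium, 41 in SMG mesenchyme, 29 in PG epithelium and 137 in PG mesenchyme. Of the reads in PG mesenchyme, 101 came from replicate 2, at 3.92 CPM, and the other 3 libraries stood at 0.176, 0.333 and 1.16 CPM. The 4 groups overlapped throughout, with 0.143 to 0.330 CPM in SMG epithelium, 0.168 to 0.538 in SMG mesenchyme and 0.0382 to 0.777 in PG epithelium. edgeR called 0 of the 5 comparisons (adjusted p = 0.108 to 0.711), of which 1, between the mesenchymes, had an unadjusted p under 0.05. DESeq2 called 0 as well. Without the 2 libraries rich in RNA of the other layer, Alx1 was called higher in PG mesenchyme than in SMG mesenchyme (2.11, adjusted p = 0.0391) and than in PG epithelium (layer difference -3.30, adjusted p = 0.0136). Leaving out either library alone also gave the layer call (adjusted p = 0.0475 and 0.0384), while without PG mesenchyme replicate 2 the layer difference was -0.52 (adjusted p = 0.639).

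Barx1 was abundant in the mesenchyme of both glands. Barx1 (ENSMUSG00000021381, chromosome 13, 48662998 to 48666507, plus strand) stood at 530.2, 695, 676 and 574 CPM in SMG mesenchyme and at 317, 366, 395 and 467 CPM in PG mesenchyme. Every SMG library was above every PG library, but by a smaller margin than for Msx1 or Alx4. The mesenchymes did not overlap for 26.2% of all genes tested, in either direction. The means of 619 ± 79.4 and 386 ± 62.7 CPM (n = 4 each) differed by -0.68 ± 0.52 (PG minus SMG), which was not past the threshold in the fit of all 15 libraries (adjusted p = 0.397). Fitted on the mesenchyme libraries alone the difference was -0.70 and called (adjusted p = 0.00292), and it was also called without PG epithelium replicate 2 (-0.68, adjusted p = 0.0121), alone or together with PG mesenchyme replicate 1 (-0.59, adjusted p = 0.03).

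Barx1 was the 1 gene of the 5 with a sizeable level in SMG epithelium, at 54.3, 84.1, 66.4 and 72.0 CPM. In PG epithelium it stood at 0.833, 15.7 and 2.14 CPM, highest in replicate 2. No PG library reached the SMG range, as was the case between the epithelia for 23.1% of all genes tested, in either direction. The means of 6.22 ± 8.23 (n = 3) and 69.2 ± 12.4 CPM (n = 4) differed by -3.47 ± 0.67 (adjusted p = 0.00449). Without PG epithelium replicate 2 the difference was -5.51 (adjusted p = 3.18e-07), and with only the epithelium libraries in the fit it was -3.46 and not called (adjusted p = 0.0773).

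The Barx1 level in SMG epithelium was set beside the mesenchymal RNA of the same libraries. It was 8.78, 13.6, 10.7 and 11.6% of the SMG mesenchyme mean in replicates 1 to 4, where the median mesenchymal marker stood at 0.822, 1.41, 4.86 and 0.721%. Of 19 markers with at least 5 CPM in SMG mesenchyme, 4 or 5 had a higher share than Barx1 in each library. In all 4 libraries these included Snai2, Fbn1, Fn1 and Sparc. In replicate 4, the library with the lowest marker median, the Barx1 share was 11.6%. Msx1 (11.2, 3.12, 14.8 and 14.9%) and Msx2 (30.3, 3.92, 20.7 and 18.8%) also stood above the median marker in replicates 1 to 4. These shares rest on only 27 and 36 reads in all of SMG epithelium. In PG epithelium the share of Barx1 was 0.216, 4.07 and 0.553%, under the marker medians of 1.54, 6.06 and 1.48%. The part of mesenchymal cells in the SMG epithelium level was not tested.

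**Figure D2:**
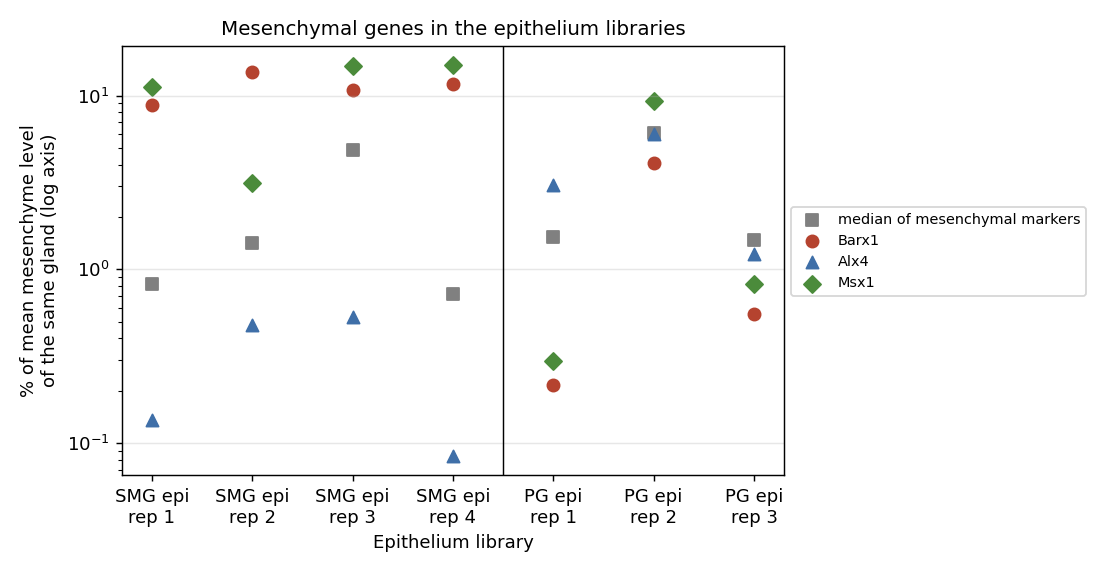
Barx1, Alx4 and Msx1 in each epithelium library, as a percent of the gene's mean in the mesenchyme of the same gland (log axis), with the median of the mesenchymal markers as grey squares. Barx1 lies above the marker median in the 4 SMG libraries (8.78 to 13.6%) and below it in the 3 PG libraries, while Alx4 lies below it in every SMG library. Msx1 also lies above it in every SMG library, on few reads. In the PG, Alx4 lies above the marker median in replicate 1 and below it in replicates 2 and 3.

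Barx1 was lower in epithelium than in mesenchyme in both glands. The log2 difference was -3.16 ± 0.56 in the SMG (adjusted p = 4.08e-04) and -5.95 ± 0.75 in the PG (adjusted p = 3.32e-05), or -8.02 in the PG without PG epithelium replicate 2. The layer differences differed by -2.79 ± 0.82 (interaction term, adjusted p = 0.0383). That call was lost in 11 of the 15 fits with 1 library left out (adjusted p = 0.0529 to 0.0859), and without PG epithelium replicate 2 the value was -4.83 (adjusted p = 2.12e-06). With no filter it was not called (adjusted p = 0.0977). The libraries whose loss kept the call were SMG epithelium replicate 1, PG epithelium replicates 1 and 2 and PG mesenchyme replicate 1.

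**Figure D3:**
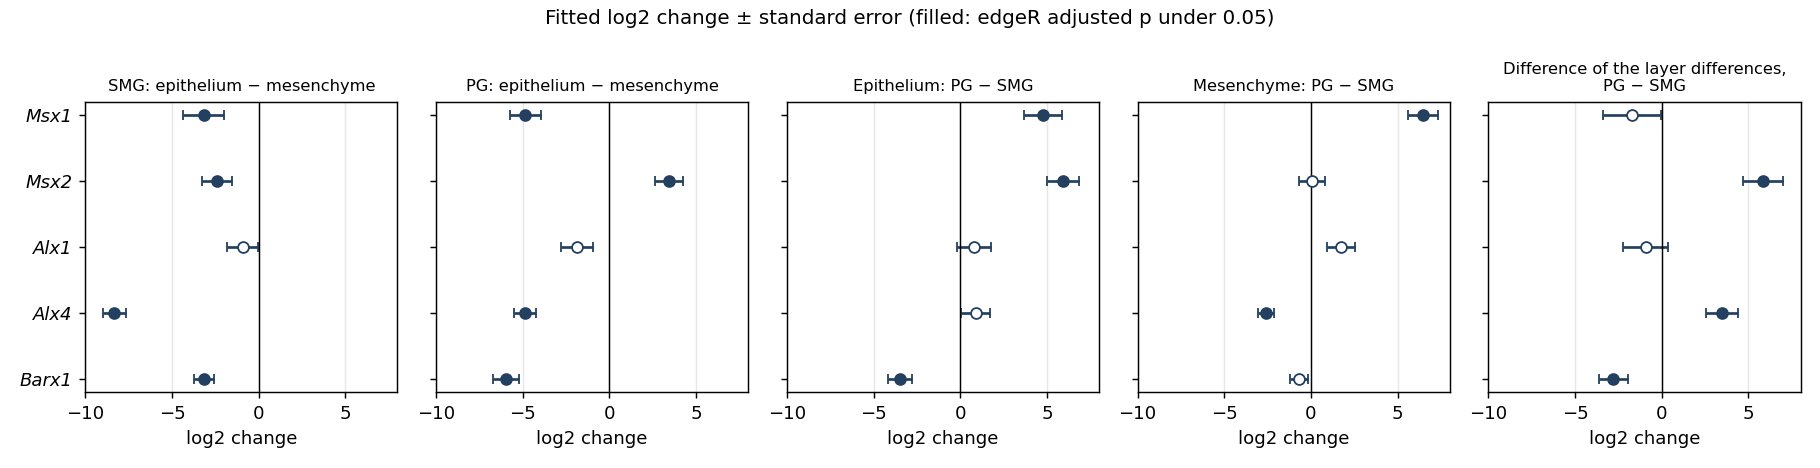
Fitted log2 change of each gene ± standard error in the 5 comparisons, with filled points for an adjusted p under 0.05 (edgeR). Msx1 (6.46) and Alx4 (-2.58) lie on opposite sides between the mesenchymes, and Msx2 is the 1 gene on opposite sides in the layer comparisons of the glands (-2.42 in the SMG and 3.42 in the PG).

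Read by comparison, 4 of the 5 genes were lower in SMG epithelium than in SMG mesenchyme, where 26.7% of the genes tested were lower 25.2% higher and 51.9% called in either direction. The libraries of the 2 layers did not overlap for these 4 genes, as for 49.5% of all genes. In the PG 3 were lower in epithelium (24.2% of all genes) and 1, Msx2, was higher (21.9%), against 46.0% called in either direction. Msx1, Alx4 and Barx1 did not overlap between the PG layers, as for 46.9% of all genes. Between the epithelia Msx1 and Msx2 were higher in the PG (7.07% of all genes) and Barx1 lower (4.66%), with 11.7% called in either direction. Between the mesenchymes Msx1 was higher in the PG (15.3% of all genes) and Alx4 lower (9.43%), with 24.7% called in either direction. The interaction was positive and called for Msx2 and Alx4 (5.97% of all genes) and negative and called for Barx1 (8.32%), with 14.3% called in either direction. The median absolute log2 change of the 5 genes was 3.16, 4.85, 3.47, 1.74 and 2.79 in these comparisons, beside 0.50, 0.48, 0.25, 0.29 and 0.36 over all genes tested. The comparisons share libraries, so that their counts are not independent. Since the 5 genes were chosen with earlier results of these data known, the contrast with all genes is not a test.

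Levels of different genes were compared per length, as RPKM (CPM divided by the kilobases of annotated exon). In SMG mesenchyme Barx1 led with 442 ± 56.8 RPKM, then Alx4 with 18.6 ± 5.58, and Msx1 (0.718 ± 0.136), Msx2 (0.540 ± 0.201) and Alx1 (0.0722 ± 0.0292) followed. The Msx1 and Msx2 ranges overlapped there. In PG mesenchyme Barx1 again led, with 276 ± 44.9 RPKM, and the second place went to Msx1 with 63.3 ± 36.3, ahead of Alx4 with 3.10 ± 1.54. In SMG epithelium Barx1 stood at 49.5 ± 8.84 RPKM, and the other 4 genes at means of 0.0375 to 0.0994. In PG epithelium replicates 1 to 3 Msx2 stood at 0.978, 11.2 and 5.96 RPKM, Barx1 at 0.595, 11.2 and 1.53, and Msx1 at 0.188, 5.85 and 0.518. All 3 genes were highest in replicate 2, the library with the most mesenchymal marker RNA. In PG mesenchyme itself Msx2 had a mean of 0.571 ± 0.61 RPKM, but replicate 4, at 1.48, was above PG epithelium replicate 1, at 0.978. The part of mesenchymal RNA in the PG epithelium levels was not tested. Within each PG epithelium library Msx2 was above Msx1, with ratios of 5.19, 1.91 and 11.5. It was above Barx1 in replicates 1 and 3 and level with it in replicate 2.

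The exchange of Msx1 and Alx4 between the mesenchymes was visible within each library, where scaling cancels. Per length, the ratio of Msx1 to Alx4 was 0.0419, 0.0327, 0.0362 and 0.0491 in SMG mesenchyme. In PG mesenchyme it was 32.4, 15.2, 12.6 and 31.1. Alx4 was thus the more abundant of the pair in each SMG library and Msx1 in each PG library.

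Msx3 and Barx2, of the same families, were measured beside them. Msx3, known from the dorsal neural tube, had 6 reads in the whole series and was not tested. Barx2, known from epithelia and muscle, took the other side from Barx1. It stood at 82.1, 55.4, 46.0 and 52.4 CPM in SMG epithelium and 82.6, 31.2 and 40.6 in PG epithelium, and the epithelia did not differ past the threshold (-0.20 ± 0.47, adjusted p = 0.856). Barx2 was higher in PG than in SMG mesenchyme (3.18 ± 0.70, adjusted p = 0.00458), with 5.70 CPM in PG mesenchyme replicate 1 and 0.920 to 1.79 in the others. These are 11.1% and 1.79 to 3.47% of its PG epithelium mean, beside epithelial marker shares of 17.3% and 2.92 to 3.57%.

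In SMG epithelium the per-length ratio of Barx1 to Barx2 was 0.930, 2.13, 2.03 and 1.93, so that 3 libraries had more Barx1 than Barx2. In PG epithelium it was 0.0142, 0.707 and 0.0740. All PG libraries were below all SMG libraries.

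BMP signals act upstream of the MSX genes, and 27 BMP pathway genes were tested. Between the mesenchymes 10 were higher in the PG and 5 lower, beside 15.3% and 9.43% of all genes tested, with a median log2 change of 0.22 beside 0.02 over all genes. Follistatin (Fst) and noggin (Nog), which block BMP-family ligands, were among the higher ones. Fst stood at 54.9 ± 32.5 CPM in PG and 5.95 ± 6.17 in SMG mesenchyme (3.20 ± 0.70, adjusted p = 0.00457), and Nog at 15.5 ± 8.01 and 1.85 ± 0.707 CPM (3.07 ± 0.33, adjusted p = 9.80e-06). Nog was higher still in PG epithelium, at 59.6 ± 8.54 CPM, and the part of the epithelial RNA in PG mesenchyme was not tested. The decoy receptor gene Bambi was lower in the PG, with 24.3 ± 4.49 against 76.8 ± 14 CPM (-1.66 ± 0.18, adjusted p = 8.19e-06), and so was the antagonist gene Chrdl1 (-1.39 ± 0.39, adjusted p = 0.016). Between the epithelia, where Msx2 differed, 3 of the 27 BMP genes were higher in the PG and 1 lower, beside 7.07% and 4.66% of all genes.

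FGF signals of the oral ectoderm are known to favour Barx1, and 16 FGF inputs and targets were tested. Between the mesenchymes 7 were higher in the PG and 2 lower, beside 15.3% and 9.43% of all genes, with a median log2 change of 0.89 beside 0.02. The target gene Etv4, a transcription factor induced by FGF, was lower in the PG, with 22 ± 5.89 against 96.6 ± 23.1 CPM (-2.13 ± 0.20, adjusted p = 3.04e-06), and the feedback inhibitor gene Spred1 was lower by a small margin (-0.32 ± 0.11, adjusted p = 0.045). The ligand gene Fgf9 (2.68 ± 0.29, adjusted p = 1.14e-05) and the receptor gene Fgfr2 (1.72 ± 0.24, adjusted p = 1.45e-04) were higher. Both had their highest levels in epithelium, 102 ± 8.40 CPM for Fgf9 in the SMG and 756 ± 121 CPM for Fgfr2 in the PG. Within the PG, Fgf9 stood at 62.6 ± 14.2 CPM in epithelium and 20.7 ± 5.18 in mesenchyme, and Fgfr2 at 104 ± 47 CPM in mesenchyme. The median epithelial marker share, larger than in SMG mesenchyme, was 17.3% in PG mesenchyme replicate 1 and 2.92 to 3.57% in replicates 2 to 4. Its part in these values was not tested.

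Of 34 other transcription factor genes of the facial mesenchyme, 27 were lower and 5 higher in SMG epithelium than in SMG mesenchyme, and 21 were lower and 2 higher in PG epithelium (median log2 changes of -5.58 and -4.29, beside 0.00 and -0.01 over all genes). Over all genes 26.7% were lower and 25.2% higher in the SMG, and 24.2% and 21.9% in the PG. Between the mesenchymes 14 were higher in the PG and 8 lower, beside 15.3% and 9.43% of all genes (median 0.55 beside 0.02). With Msx1 on the PG side stood the T-box gene Tbx18 (5.82 ± 0.53, adjusted p = 6.19e-06) and the homeobox gene Meox2, known from muscle precursors and limb, with 160.4 ± 33.8 against 5.37 ± 1.39 CPM (4.90 ± 0.57, adjusted p = 4.78e-05). With Alx4 on the SMG side stood the forkhead gene Foxc2, with 0.795 ± 0.281 CPM in PG and 27.1 ± 3.43 in SMG mesenchyme (-5.07 ± 0.53, adjusted p = 7.40e-06).

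Other genes were ranked by how closely their pattern followed each of the 5, as the root mean square difference of centred log2 CPM over the 15 libraries, among 12538 genes with at least 5 CPM in their highest group. Closest to Msx1 were Cbln4, a secreted synaptic protein gene (0.94), Cntn6, a contactin gene (1.05), and Mybpc1, a muscle myosin-binding protein gene (1.14), against a median of 3.61 over all candidates. Cbln4 stood at 41.2 ± 13.5 CPM in PG mesenchyme and 0.306 ± 0.132 in SMG mesenchyme. Closest to Msx2 were Rhbdl3 (0.99), the LIM homeobox gene Lmx1b (1.00) and the LIM-only gene Lmo1 (1.03), with a median of 2.09. Lmx1b stood at 6.29 ± 4.11 CPM in PG epithelium and 0.0451 ± 0.0539 in SMG epithelium.

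Closest to Alx4 were the growth factor gene Igf1 (0.88), Fap, which encodes a protease of activated fibroblasts (0.95), and the neuropilin gene Nrp2 (0.96), with a median of 3.55. Igf1 stood at 823 ± 135 CPM in SMG and 195 ± 57.2 in PG mesenchyme. Barx1 was followed most closely by Asb4 (0.68), the cadherin gene Cdh6 (0.87) and the endothelial receptor gene Tek (1.02), with a median of 2.95. Asb4 shared the SMG epithelium level, with 14 ± 6.41 CPM there and 2.63 ± 4.08 in PG epithelium, beside 146 ± 33.0 and 44.5 ± 4.88 in SMG and PG mesenchyme. Cdh6 ran the other way from Barx1 between the mesenchymes, with 32.3 ± 13.1 CPM in SMG and 86.4 ± 11.3 in PG mesenchyme. For Alx1, Reep1 (0.86) and Rhof (0.92) were among the closest genes and were little nearer than the median gene (1.24). Among the 5 genes themselves the nearest pair was Alx4 with Barx1 (2.30) and the farthest Msx2 with Barx1 (4.19), while the paralogs Msx1 and Msx2 stood 3.55 apart.

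**Figure D4:**
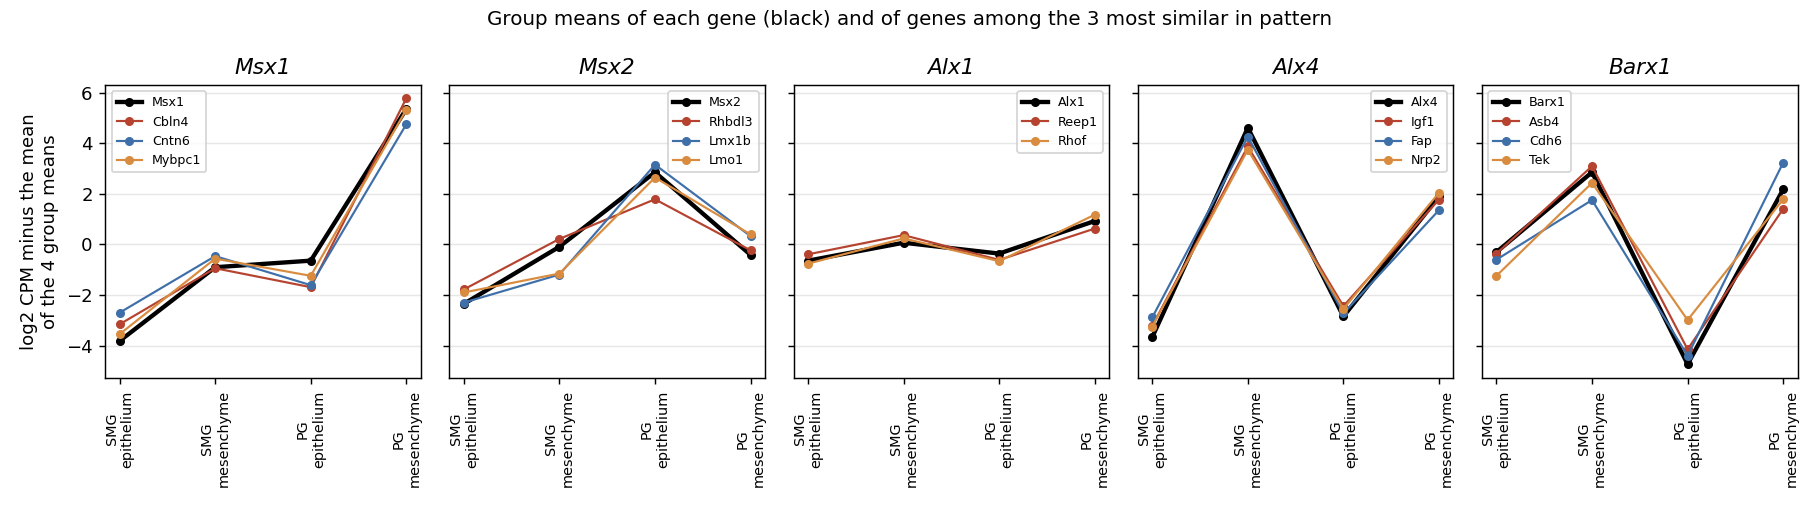
Group means of centred log2 CPM for each of the 5 genes (black) and 2 or 3 of the genes nearest to it in pattern (colours). The Msx1 set is high in PG mesenchyme, the Msx2 set in PG epithelium and the Alx4 set in SMG mesenchyme, the Barx1 set is low in PG epithelium, and the Alx1 set varies least.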

How the data were processed

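Bulk RNA of 15 libraries in 4 groups (gland by layer) was analysed, each assigned by its title, and table columns were matched to samples by the description label. The authors deposited whole-number counts per gene and a table of CPM. Per the submitters' processing notes STAR 2.5.2a, DESeq2, edgeR and limma were used with builds GRCm38.p3 and mm10. Which program counted the reads, with which strand setting and gene models, is not given in the sources used here. Libraries were made with SMART-Seq v4 and Nextera XT kits per the labels' protocols, which keep no strand. In GENCODE M21 (GRCm38) Alx1 shares 243 exon bases with Gm17028 on the same strand (at most 1 read in any library), and Msx1, Msx2, Alx4 and Barx1 share none with another gene. The 92 ERCC spike-in rows (at most 0.0054% of counts) were left out. Symbols were found for 48349 of 48709 identifiers. Coordinates and exon lengths came from GENCODE M21, and RefSeq start sites can differ from its gene ends.

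Counts were tested with edgeR 4.0.16 in R 4.3.3 (filterByExpr by group, TMM, robust dispersion and robust quasi-likelihood F-tests, two-sided, 1 mean per group, all 15 libraries, Benjamini-Hochberg over 18940 genes, threshold 0.05). Log2 changes are given with a standard error derived from the F statistic. The test was checked on simulated counts with known changes between the mesenchymes and the same dispersion for all genes. It recovered 57.4% of the tested 2-fold changes and 96.0% of the tested 4-fold changes. The labels call the replicates independent and biological without saying how many glands or litters each held, and p-values measure the spread between these libraries. Alternatives were median-ratio size factors, DESeq2 1.42.0, no filter, only the groups compared, a replicate block, 1 library left out, both libraries rich in the other layer's markers left out, and limma 3.58.1 on log2 of the deposited CPM plus 0.5 or 2. The CPM table gave whole reads for 100.00% of values (within 0.001 reads), and the same edgeR test on them, an alternative added after seeing the data, called 9826, 8721, 2221, 4678 and 2705 genes, as many as on the counts.

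Named genes were the 5 genes, the rest of their families, the 3 genes nearest to each in pattern, and up to 2 genes per direction and list with the largest called change between the mesenchymes and at least 5 CPM. Some genes that these rules name are not reported here. The 5 genes and all lists were chosen with earlier results of these data known. No per-library column was left unmapped.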

Additional observations from a re-analysis of the deposited data

Results flagged for a closer look

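The layer difference of 3 genes differed between the glands by the interaction term (edgeR): Msx2 by 5.84, Alx4 by 3.47 and Barx1 by -2.79 on the log2 scale (PG minus SMG). Msx2 in PG mesenchyme had 1 library far from the other 3, replicate 4 at 4.84 CPM against 0.466 to 1.18. Dixon's test at the 95% level was applied to 15 groups of 4 libraries and marked 1, and chance marks about 1 in 20.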

How the results depend on the processing

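The number of genes called in each of the 5 comparisons stayed within 1.5 times under all alternatives, and the group means of the 5 genes moved by less than 1 SD with other scalings. Of the 5 genes, 4 were called between the layers of the SMG, but 2 with no filter, 2 with limma at pseudocount 2, and 2 to 4 with 1 library left out. Between the mesenchymes 2 were called, and 4 without the 2 libraries richest in markers of the other layer. For the interaction 3 were called, 1 with no filter and 2 to 3 with 1 library left out. The remaining counts of called genes with 1 library left out were 4 to 5 between the PG layers, 2 to 3 between the epithelia and 2 to 3 between the mesenchymes. Changes of sign were seen for 3 differences, which were not called. Msx2 between the mesenchymes went from 0.07 to -0.25 with the replicate block, -0.21 and -0.07 with limma at pseudocount 0.5 and 2, and -0.18 and -1.0 without SMG mesenchyme replicate 2 or PG mesenchyme replicate 4 (range -1.0 to 0.40 with 1 library left out). Alx1 between the epithelia was -0.22 without PG epithelium replicate 2, alone or with PG mesenchyme replicate 1 (range -0.22 to 1.37), and its interaction was 0.42 without PG mesenchyme replicate 2 (range -1.97 to 0.42). Alx1 was filtered out of the fits on only the SMG libraries and only the epithelium libraries. The cause was not tested. With limma at pseudocount 0.5 and 2, Msx1 between the epithelia was no longer called (adjusted p = 0.0566 and 0.147), and its interaction was (-3.77 and -4.03). The Msx1 interaction was also called without PG epithelium replicate 2 (-4.28, adjusted p = 0.014).

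Replicate numbers recur across groups, and the deviations of 21 same-numbered pairs of libraries correlated at -0.1238 to 0.2826. The 3 above 0.1 were all between the SMG layers, replicates 2, 3 and 4 (0.1418, 0.1926 and 0.2826), each the highest of its SMG epithelium library with any SMG mesenchyme library. Replicate 1 was at 0.0136, under its 0.0294 with SMG mesenchyme replicate 2. The numbers were not taken as pairs, since not every pair passed 0.1, but the values are a hint, from the data and not the labels, that SMG layers share some pairing. With the replicate block, 10034, 8546, 1961, 4689 and 2489 genes were called, against 9826, 8721, 2221, 4678 and 2705 without it, and 4, 4, 3, 2 and 3 of the 5 genes, as without it. Depth limits Alx1 and, in SMG epithelium, Msx1 and Msx2, which rest on 24 to 36 reads in that group. Alx4 had 45 reads in SMG epithelium and 57 in PG epithelium, which limits the size of its layer differences and its interaction.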
